A study of Mus musculus with 12 samples.

Results

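The NF-κB genes described here are 10 genes chosen by symbol out of the 23022 that the expression table lists: the subunits *Rela*, *Relb*, *Rel*, *Nfkb1* and *Nfkb2*, the IκB inhibitors *Nfkbia*, *Nfkbib* and *Nfkbie*, the feedback gene *Tnfaip3*, and *Ikbkg*, the scaffold of the IκB kinase complex. All 10 were found and all 10 were expressed highly enough to be tested, so that no member was left out for a low level. They were chosen by name, with earlier results of these data known. Their RNA was measured in B16-F10 cells, a mouse melanoma line, which in every group carried Cas9. The 4 groups of 3 libraries were control cells with a non-targeting guide (NTC, written as no template control in the sample labels) and *Mbnl1* and *Mbnl2* double knockout cells (DKO), each either left untreated or given IFNγ, which the study's methods put at 1 ng/mL for 24 h. The Cas9 line came from 1 sorted cell and the knockout population was polyclonal. *Mbnl1* read 55.6 to 63.9 TPM in NTC and 41.1 to 47.5 TPM in DKO libraries, and *Mbnl2* 99.2 to 107.0 and 83.9 to 98.0 TPM, so that RNA of both was lower but still present. Expression is given in TPM, the share of a library's transcripts that a gene makes up, which adjusts for transcript length and allows genes to be compared within a library.

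NF-κB is a family of dimeric transcription factors built from the proteins of these 5 subunit genes. In resting cells IκB proteins hold the dimers in the cytoplasm. Signals from TNF, IL-1 and Toll-like receptors act through the IκB kinase complex, which marks the IκB proteins for destruction and releases dimers such as RelA with p50, the product of *Nfkb1*. A slower, non-canonical branch processes the *Nfkb2* product p100 to p52, which pairs with RelB. Several family members are themselves NF-κB target genes, among them *Nfkbia*, *Nfkb2* and *Relb*, and *Tnfaip3* encodes A20, a ubiquitin-editing enzyme that shuts the pathway down again. RNA levels do not report where the proteins are or whether the pathway is active. In bulk RNA, fewer cells that express a gene and less RNA per cell cannot be told apart.

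Start-site sequences were read for the members because known NF-κB target genes carry κB sites there. The RefSeq promoter table (GRCm38.p6), which covers 250 bases before to 50 bases after a start, held 8 of the 10 members. *Nfkb1* and *Relb* had no entry. A match to the κB consensus on either strand was found for 5 of these 8 genes, *Tnfaip3*, *Rel*, *Nfkbia*, *Nfkbie* and *Nfkb2*, against 5.14% of the 27025 genes in the table and 4.51% of its 32851 windows. The matches are shown on the strand on which the consensus reads, with 5 flanking bases on each side and the consensus in capitals, and the position is that of the most upstream base of the match, counted in bases before the start. The set is shown because it includes *Nfkb2*, *Nfkbie*, *Nfkbia* and *Tnfaip3*, the members whose RNA differed most between the genotypes. *Tnfaip3* was lower in DKO cells and the others were higher. Several members were known NF-κB targets beforehand, so the share with a match is not a test. A link of the matches to the RNA differences was not tested.

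*Nfkbie*, 106 bases before the start, chr17:45555589-45555608: aaacaGGGGGATTCCggagg
*Nfkbia*, 29 bases before, opposite strand, chr12:55492662-55492681: gcgcgGGGAATTTCCaagcc
*Nfkb2*, 39 bases before, chr19:46304693-46304712: gtcacGGGAATTCCCcccct
*Nfkb2*, 11 bases before, chr19:46304721-46304740: cgaaaGGGGCTTTCCcggct
*Tnfaip3*, 125 bases before, chr10:19015521-19015540: acgcgGGGACACCCCggggc
*Tnfaip3*, 12 bases before, opposite strand, chr10:19015408-19015427: aacagGGGGATTTCCgatgg
*Rel*, 92 bases before, chr11:23771047-23771066: gcagcGGGAAATCCCccccc

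The positions are counted from RefSeq starts. By the GENCODE gene spans given further below, the *Tnfaip3* and *Nfkb2* matches shown lie inside the gene. Further κB matches lay at other annotated starts of *Nfkb2*. The 250 bases before the start of *Nfkbie* and of *Nfkbia*, the inhibitors with the largest genotype differences in TPM relative to their level, are given in full, with the κB match in capitals on the gene's own strand. *Nfkbie* lies on the plus strand and *Nfkbia* on the minus strand.

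*Nfkbie*, chr17:45555450-45555699: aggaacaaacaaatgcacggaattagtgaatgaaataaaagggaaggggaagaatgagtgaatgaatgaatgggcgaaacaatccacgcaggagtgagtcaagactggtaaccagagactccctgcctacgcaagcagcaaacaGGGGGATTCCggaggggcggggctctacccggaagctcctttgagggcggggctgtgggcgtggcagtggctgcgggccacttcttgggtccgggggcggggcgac
*Nfkbia*, chr12:55492648-55492897: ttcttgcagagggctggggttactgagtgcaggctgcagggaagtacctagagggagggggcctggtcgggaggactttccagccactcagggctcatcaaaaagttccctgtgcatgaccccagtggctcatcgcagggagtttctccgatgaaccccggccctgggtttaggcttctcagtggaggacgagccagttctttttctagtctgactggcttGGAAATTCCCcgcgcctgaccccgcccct

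A match is a description of the letters. Binding was not measured.

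The 10 genes spanned more than an order of magnitude in level. In untreated NTC libraries the mean TPM ran from 37.7 for *Nfkbib* through 29.7 for *Nfkb1*, 27.9 for *Rela*, 26.8 for *Ikbkg*, 13.1 for *Nfkb2*, 7.72 for *Nfkbia*, 4.1 for *Relb*, 3.58 for *Nfkbie* and 2.02 for *Tnfaip3* to 1.77 for *Rel*. The ranges of the 3 libraries overlapped for 3 pairs of neighbors in this order, *Rela* with *Ikbkg*, *Relb* with *Nfkbie*, and *Tnfaip3* with *Rel*, and for no other pair. The abundant end therefore held the RNAs that encode the canonical pair RelA and p50 and IκBβ (*Nfkbib*). The low end held those that encode c-Rel (*Rel*) and A20. Protein levels were not measured in these data. By condition mean, *Nfkbib* stood highest and *Rel* lowest in all 4 conditions, but the range of *Nfkbib* overlapped that of *Ikbkg* in treated NTC libraries, and that of *Rel* overlapped that of *Tnfaip3* in every condition but treated NTC. A change of place was seen for *Nfkbie*, which encodes IκBε. It ranked below *Relb* in both NTC conditions, where their ranges overlapped, and above it in untreated DKO libraries without overlap (mean 5.65 against 4.85 TPM). The same order held in treated DKO libraries, with overlapping ranges.

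**Figure D1:**
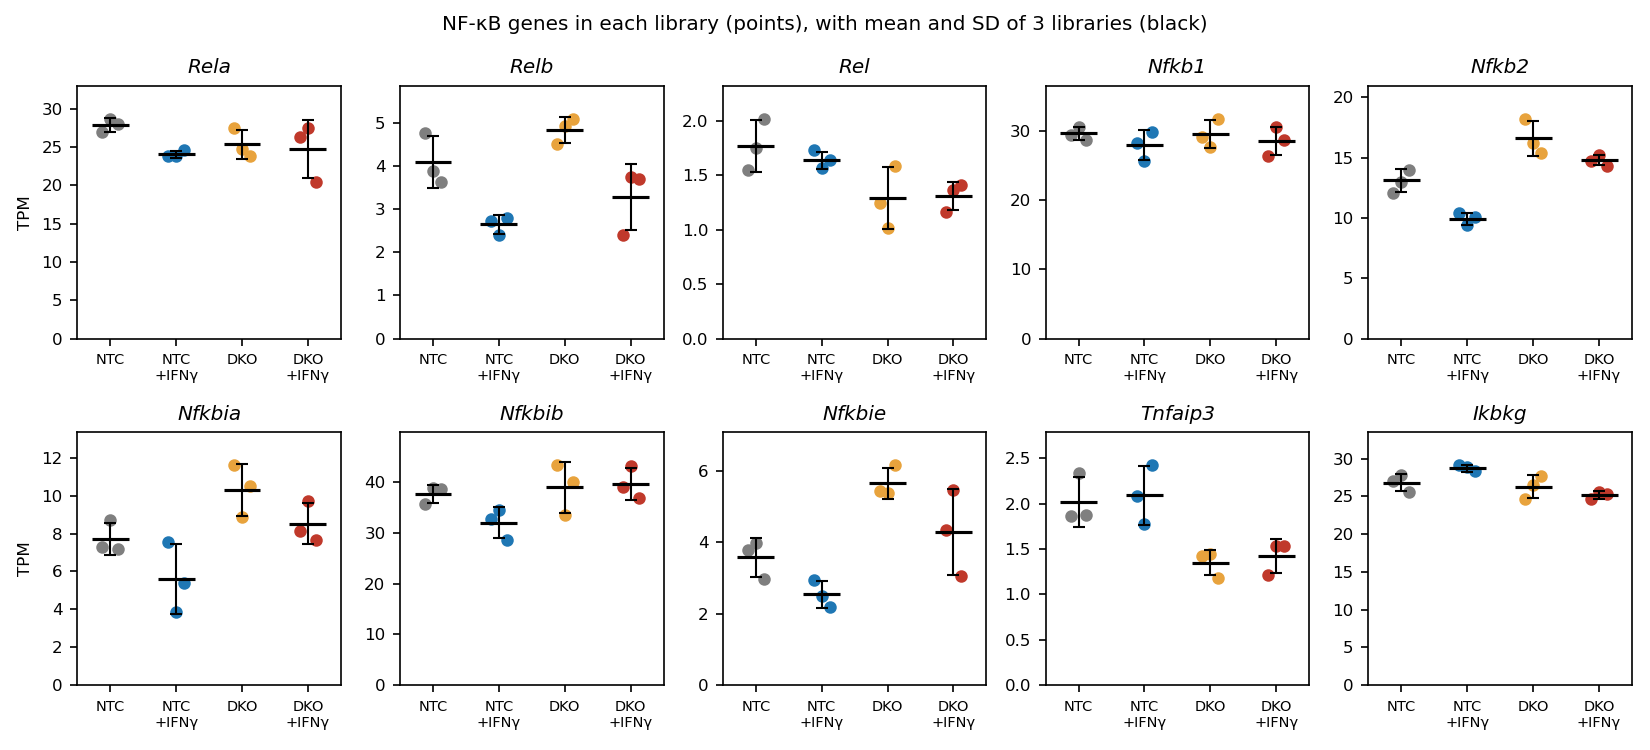
TPM of the 10 NF-κB genes in each library (points) by condition, with the mean (line) and SD (bar) of 3 libraries, each panel on its own scale from 0. *Nfkb2*, *Nfkbia* and *Nfkbie* sit higher in DKO than in NTC libraries of the same treatment, with no overlap, and *Tnfaip3* sits lower.

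Values were compared as log2(TPM + 1) with limma across the 11663 genes that reached 1 TPM in at least 3 libraries, with Benjamini-Hochberg adjusted p-values over all of them and a threshold of 0.05. Differences below are on this scale with their standard error (SE). The scale understates the change of genes near 1 to 5 TPM, here *Rel*, *Tnfaip3*, *Relb* and *Nfkbie*. With 3 libraries against 3, an exact permutation test of a single gene cannot give a two-sided p below 0.1. The labels do not say whether the libraries came from separate cultures, so that p-values measure the spread between these libraries.

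The first comparison asked what IFNγ did to these genes in NTC cells. By limma 2 of the 10 genes were lower after IFNγ, *Nfkb2* and *Relb*, the pair of the non-canonical branch. No member rose. Over all tested genes 12.1% were called in either direction and 4.78% were called lower. The median difference of the 10 genes was -0.215, against 0.019 for all tested genes, and 8 of the 10 differences were below 0.

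*Nfkb2*, on chromosome 19 (46304320 to 46312385, plus strand), read 12.1, 13.0 and 14.0 TPM in untreated NTC, 10.4, 9.38 and 10.1 TPM in treated NTC, 18.2, 16.2 and 15.4 TPM in untreated DKO and 14.7, 15.2 and 14.3 TPM in treated DKO libraries. All treated NTC libraries lay below all untreated ones, and every DKO library lay above every NTC library. The mean in NTC cells fell by 23.8% with IFNγ (log2 difference -0.36, SE 0.0727, adjusted p = 0.0122). When a trend with GC content and transcript length was removed from each library, the difference was -0.16 (adjusted p = 0.147). Leaving out untreated NTC replicate 3 (adjusted p = 0.0544) or treated NTC replicate 2 (adjusted p = 0.0526) also ended the call.

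*Relb* lies on chromosome 7 (19606217 to 19629438, minus strand). Its values were 4.78, 3.89 and 3.63 TPM in untreated NTC and 2.74, 2.40 and 2.79 TPM in treated NTC libraries, against 4.51, 4.93 and 5.10 TPM in untreated DKO and 2.41, 3.75 and 3.70 TPM in treated DKO libraries. Treated libraries lay below untreated ones in both genotypes. In NTC cells the mean fell by 35.5% (log2 difference -0.48, SE 0.129, adjusted p = 0.0318). The call was lost without the filter on low values (adjusted p = 0.055), with the GC and length trend removed (-0.36, adjusted p = 0.136) and in 5 of 12 leave-one-out fits, namely without any of the 3 untreated NTC libraries or without treated NTC replicate 2 or 3, where the adjusted p lay between 0.058 and 0.107.

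The other differences after IFNγ in NTC cells did not pass the threshold. Unadjusted p-values under 0.05 were found for 6 of the 10 genes, against 31.8% of tested genes. The treated and untreated libraries did not overlap for 6, against 36.6% of tested genes. Among the genes without overlap, only *Ikbkg* had its treated libraries above the untreated ones. *Nfkbia*, which encodes IκBα, an inhibitor that NF-κB itself induces, gave -0.43 (SE 0.165, adjusted p = 0.0943). Its treated libraries spread most, at 7.54, 3.87 and 5.40 TPM, with replicate 2 lowest, against 7.27, 8.70 and 7.18 TPM untreated. *Nfkbie* gave -0.37 (SE 0.151, adjusted p = 0.112), *Nfkbib* -0.23 (SE 0.0922, adjusted p = 0.103) and *Rela* -0.20 (SE 0.089, adjusted p = 0.136). The smallest differences were those of *Ikbkg* (0.10), *Nfkb1* (-0.08), *Rel* (-0.07) and *Tnfaip3* (0.03).

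In DKO cells no member was called after IFNγ by limma, with 3 of the 10 at an unadjusted p under 0.05, against 0.78% of tested genes called and 9.59% at an unadjusted p under 0.05. *Relb* gave -0.46 (SE 0.129, adjusted p = 0.187), *Nfkbie* -0.35 (SE 0.151, adjusted p = 0.467) and *Nfkb2* -0.16 (SE 0.0727, adjusted p = 0.512). The *Relb* estimate was thus close to its value in NTC cells. Groups did not overlap for *Relb* and *Nfkb2* only, 2 of 10 members, against 14.7% of tested genes. The 10 differences had a median of -0.05, against 0.008 for all tested genes.

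The difference between both IFNγ effects was tested directly as an interaction. None of the 10 genes passed, and none had an unadjusted p under 0.05, while 0.0343% of tested genes were called and 11.5% had an unadjusted p under 0.05. The difference was above 0 for 9 of the 10 genes, with a median of 0.065, against -0.006 for all tested genes. All 10 values come from the same 12 libraries, so this count is not a test. With the GC and length trend removed, *Relb* (-0.08) and *Nfkbie* (-0.06) were below 0. Over the alternatives that kept all libraries, no other member changed sign, while *Nfkb2* ran from 0.05 to 0.23 and *Rela* from 0.01 to 0.20. The interval is narrowest for *Ikbkg*, where the IFNγ effect in DKO minus that in NTC cells was -0.16 (95% confidence interval -0.32 to 0.00, adjusted p = 0.436). It was 0.20 for *Nfkb2* (-0.02 to 0.42, adjusted p = 0.459) and 0.27 for *Nfkbib* (-0.02 to 0.55, adjusted p = 0.446). For *Relb* it was 0.02 (-0.38 to 0.41) and for *Nfkbie* 0.02 (-0.44 to 0.48). The interval of *Relb* thus nearly reaches the size of its IFNγ effects, and that of *Nfkbie* goes beyond the size of its IFNγ effects. A p above the threshold does not show that the effects were equal.

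**Figure D2:**
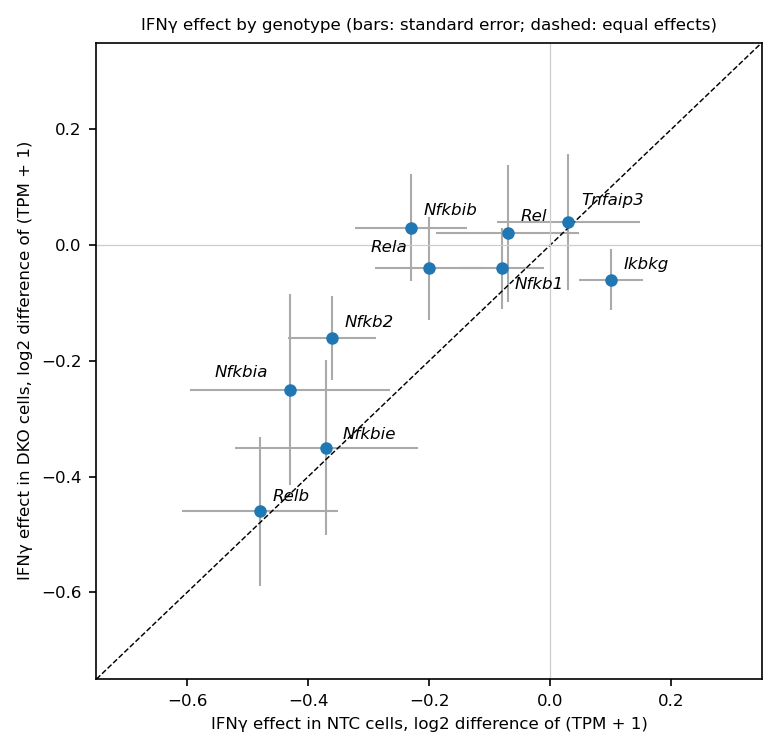
The IFNγ effect on each NF-κB gene in NTC cells (horizontal axis) and DKO cells (vertical axis), both as log2 differences of (TPM + 1), with bars of 1 standard error and a dashed line of equal effects. *Relb* lies lowest on both axes, at -0.48 and -0.46. Every gene but *Ikbkg* lies above the line, *Nfkbib* and *Nfkb2* farthest.

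Averaged over both genotypes, a contrast added after the values were seen, IFNγ lowered 3 of the 10 genes, against 10.2% of tested genes called and 3.7% called lower. *Relb* gave -0.47 (SE 0.0911, adjusted p = 0.00853), *Nfkb2* -0.26 (SE 0.0514, adjusted p = 0.00967) and *Nfkbie* -0.36 (SE 0.107, adjusted p = 0.0473). *Relb* and *Nfkb2* passed in all 12 fits that left out 1 library, and *Nfkbie* in 3 of them. With the GC and length trend removed, *Nfkb2* was at -0.14 and *Nfkbie* at -0.32 and neither passed. *Nfkbie* passed in 3 of the 8 other alternatives. *Irf1*, a gene that both IFNγ and NF-κB are known to induce, rose in both genotypes, by 1.14 (SE 0.0712, adjusted p = 2.1e-07) in NTC and 0.93 (SE 0.0712, adjusted p = 2.2e-06) in DKO cells.

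The second set of comparisons asked how the genotypes differed. Without IFNγ, 3 of the 10 genes were called, against 36.4% of tested genes: *Nfkb2* and *Nfkbie* were higher in DKO cells and *Tnfaip3* was lower. With IFNγ, 6 of the 10 were called, against 43.3% of tested genes: *Nfkb2*, *Nfkbie*, *Nfkbia* and *Nfkbib* were higher and *Tnfaip3* and *Ikbkg* lower. Called higher were 17.0% and lower 19.4% of tested genes without IFNγ, and 19.5% and 23.9% with it. After scaling of the libraries to 1 common total, the split of the members with IFNγ was 4 higher and 0 lower. The members' median difference was 0.015 without and 0.125 with IFNγ, against -0.006 and -0.013 for all tested genes. With calls this common among all genes, neither count is particular to the NF-κB genes. The DKO and NTC libraries were separated for 4 members without and 7 members with IFNγ, against 51.6% and 49.9% of tested genes.

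**Figure D3:**
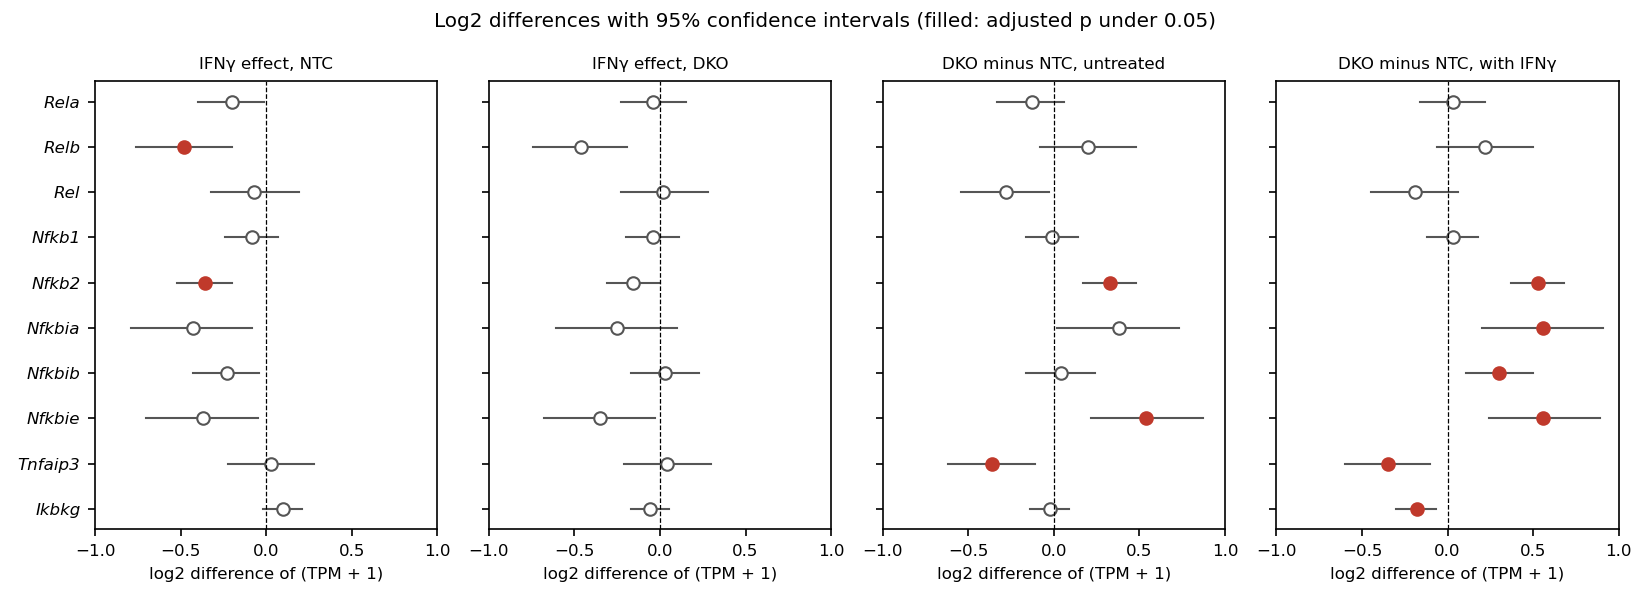
Log2 differences of (TPM + 1) for the 10 NF-κB genes in 4 comparisons, with 95% confidence intervals and filled points where the limma adjusted p was under 0.05. *Nfkb2*, *Nfkbie* and *Tnfaip3* are filled in both genotype comparisons, and no gene is filled for IFNγ in DKO cells.

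Among the subunits, *Nfkb2* differed between the genotypes. It was higher in DKO cells by 0.33 without IFNγ (SE 0.0727, adjusted p = 0.00334), a mean of 16.6 ± 1.44 against 13.1 ± 0.945 TPM (SD, n = 3). With IFNγ the difference was 0.53 (SE 0.0727, adjusted p = 8.21e-05), 14.8 ± 0.447 against 9.94 ± 0.504 TPM. Both calls held in all 12 fits that left out 1 library and in the 9 other alternatives, over which the second ranged from 0.34 to 0.61. *Psd*, which overlaps *Nfkb2* on the opposite strand over 299 exon bases, was also higher in DKO cells but read only 0.684 to 1.69 TPM. A non-coding gene on the opposite strand, *AC114539.1*, shares 531 exon bases with *Nfkb2* and has no TPM value. The libraries are unstranded, and the part of either gene in the *Nfkb2* values was not tested.

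No other subunit was called in either genotype comparison. *Nfkb1*, on chromosome 3 (135584655 to 135691547, minus strand), read 29.5, 30.7 and 28.8 TPM in untreated NTC, 28.3, 25.7 and 29.9 TPM in treated NTC, 29.2, 27.7 and 31.8 TPM in untreated DKO and 26.5, 30.6 and 28.8 TPM in treated DKO libraries. Its 4 conditions overlapped, and the genotypes differed by -0.01 without and 0.03 with IFNγ. *Rela*, on chromosome 19 (5637483 to 5648130, plus strand), read 27.0, 28.7 and 28.1 TPM, then 23.8, 23.9 and 24.6 TPM with IFNγ in NTC, and 27.5, 24.8 and 23.8 TPM, then 26.4, 27.5 and 20.5 TPM with IFNγ in DKO libraries. Treated DKO replicate 3 was the lowest of all 12. *Rel*, on chromosome 11 (23736847 to 23770970, minus strand), read 1.55, 1.75 and 2.02 TPM, then 1.73, 1.57 and 1.64 TPM with IFNγ in NTC, and 1.25, 1.02 and 1.59 TPM, then 1.16, 1.37 and 1.41 TPM with IFNγ in DKO libraries. Every treated DKO value of *Rel* lay below every treated NTC value, and the untreated groups overlapped. Its genotype difference was -0.28 in untreated (SE 0.118, adjusted p = 0.0784) and -0.19 in treated cells (SE 0.118, adjusted p = 0.205). The first was called without untreated DKO replicate 3 (-0.38, adjusted p = 0.0375). *Relb* gave 0.20 (SE 0.129, adjusted p = 0.243) and 0.22 (SE 0.129, adjusted p = 0.187). Without treated DKO replicate 1, its lowest DKO library, the second was 0.38 (adjusted p = 0.0193).

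The 5 subunits can also be read as shares of their summed TPM. *Nfkb1* and *Rela* together made up most of it in every library. The *Nfkb2* share was 17.1% ± 1.11 (SD, n = 3) in untreated NTC, 15.0% ± 0.458 in treated NTC, 21.4% ± 1.38 in untreated DKO and 20.3% ± 0.787 in treated DKO libraries. Each DKO library lay above each NTC library, with 19.4% the lowest DKO and 18.3% the highest NTC value. *Rela* held 36.5% ± 0.435 in untreated NTC and 32.7% ± 1.78 in untreated DKO libraries, without overlap, and 36.4% ± 1.39 against 34.0% ± 3.76 with IFNγ, with overlap. The ratio of *Nfkb2* to *Nfkb1*, the precursors of p52 and p50, was 0.44, 0.356, 0.565 and 0.517 on average in the same order. These shares and ratios were not tested.

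**Figure D4:**
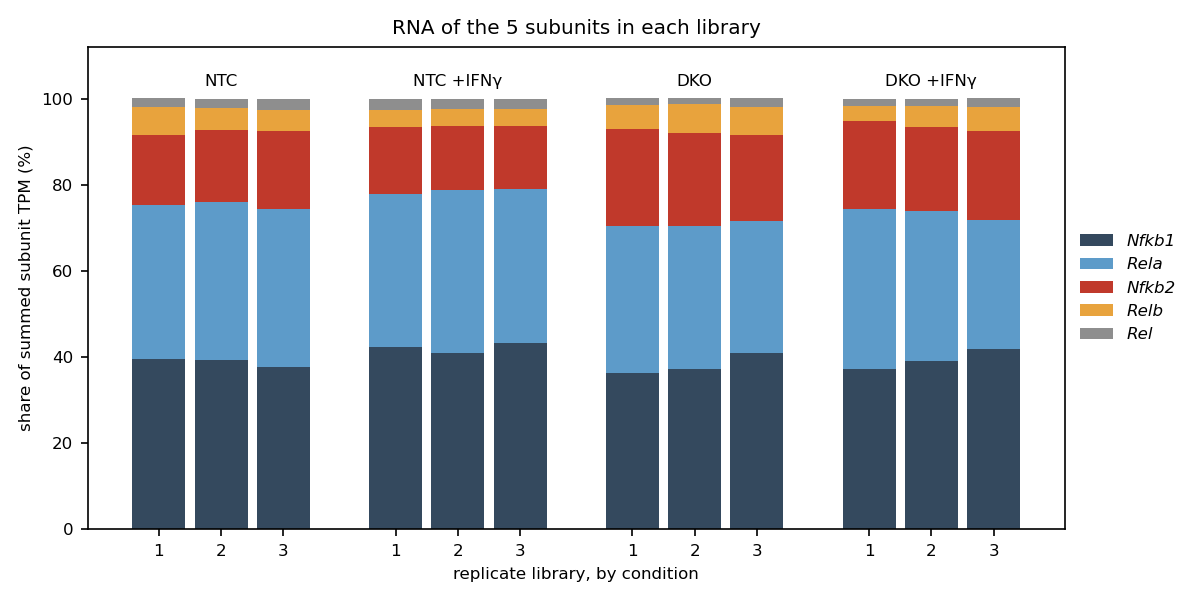
Share of the summed TPM of the 5 subunit genes held by each gene (vertical axis, percent) in each of the 12 libraries, grouped by condition. The *Nfkb2* band takes 14.6% to 18.3% in NTC and 19.4% to 22.6% in DKO libraries.

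Of the 3 inhibitors, 1 was called higher in untreated DKO cells (*Nfkbie*) and all 3 in treated DKO cells. *Nfkbie*, on chromosome 17 (45555703 to 45563169, plus strand), read 3.79, 3.99 and 2.96 TPM in untreated NTC, 2.94, 2.49 and 2.19 TPM in treated NTC, 5.44, 5.37 and 6.15 TPM in untreated DKO and 4.35, 5.46 and 3.06 TPM in treated DKO libraries. DKO and NTC libraries of one treatment did not overlap, although treated DKO replicate 3 came close at 3.06 against 2.94 TPM. In the untreated cells the DKO mean was 57.9% higher (log2 difference 0.54, SE 0.151, adjusted p = 0.0124), and in the treated cells 69.2% higher (0.56, SE 0.151, adjusted p = 0.00889). Leaving out untreated NTC replicate 3 ended the first call (0.44, adjusted p = 0.0579).

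*Nfkbia*, on chromosome 12 (55489410 to 55492647, minus strand), read 11.6, 8.88 and 10.5 TPM in untreated DKO and 8.14, 9.73 and 7.66 TPM in treated DKO libraries, above the NTC libraries of the same treatment given before. With IFNγ the difference was 0.56 (SE 0.165, adjusted p = 0.015). It was 0.36 without treated NTC replicate 2, the low library (adjusted p = 0.0679), and 0.47 without treated DKO replicate 2 (adjusted p = 0.0638). Without IFNγ the difference was 0.38 (SE 0.165, adjusted p = 0.0933).

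*Nfkbib* lies on chromosome 7 (28758251 to 28767512, minus strand). Its values were 35.6, 38.9 and 38.7 TPM in untreated NTC, 32.8, 34.6 and 28.6 TPM in treated NTC, 43.3, 33.5 and 40.1 TPM in untreated DKO and 39.0, 43.1 and 36.9 TPM in treated DKO libraries. The genotypes overlapped without IFNγ and did not overlap with it. Untreated cells gave 0.04 (SE 0.0922, adjusted p = 0.778) and treated cells 0.30 (SE 0.0922, adjusted p = 0.0169). The difference in treated cells did not pass with the GC and length trend removed (0.16, adjusted p = 0.0695), without treated NTC replicate 3 (0.23, adjusted p = 0.08) and without treated DKO replicate 2 (0.24, adjusted p = 0.0723). *Sirt2*, which shares 42 exon bases with it on the opposite strand, was not called in any comparison.

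Set against their partners, the summed TPM of the 3 inhibitors came to 0.64 ± 0.0192 (SD, n = 3) of the summed TPM of the 5 subunits in untreated NTC, 0.607 ± 0.0715 in treated NTC, 0.706 ± 0.0582 in untreated DKO and 0.72 ± 0.025 in treated DKO libraries. The genotypes overlapped without IFNγ, where DKO replicate 2 was at 0.639. With IFNγ all 3 DKO libraries, from 0.693 to 0.743, lay above all 3 NTC libraries, from 0.524 to 0.65. IκBε is known to bind c-Rel dimers, and the ratio of *Nfkbie* to *Rel* was 2.06 ± 0.527 in untreated NTC, 1.54 ± 0.185 in treated NTC, 4.49 ± 0.705 in untreated DKO and 3.3 ± 0.983 in treated DKO libraries. RNA ratios do not give protein ratios, and these were not tested.

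*Tnfaip3*, on chromosome 10 (19000910 to 19015657, minus strand), moved against the inhibitors. It read 1.86, 2.34 and 1.87 TPM in untreated NTC, 2.08, 1.78 and 2.42 TPM in treated NTC, 1.42, 1.44 and 1.18 TPM in untreated DKO and 1.21, 1.53 and 1.53 TPM in treated DKO libraries. Every DKO library lay below every NTC library. The mean in DKO cells was lower, with a change of -33.4% in untreated cells (log2 difference -0.36, SE 0.118, adjusted p = 0.0273) and of -32.0% in treated cells (-0.35, SE 0.118, adjusted p = 0.028). At this level the calls depend on single libraries. The first needed both untreated NTC replicate 2 (adjusted p = 0.112 when left out) and untreated DKO replicate 3 (adjusted p = 0.0965 when left out), and the second did not pass without treated NTC replicate 1 (adjusted p = 0.0563) or 3 (adjusted p = 0.111), without treated DKO replicate 1 (adjusted p = 0.103), with only the 6 libraries compared (adjusted p = 0.0585) and with libraries scaled to the same total (-0.29, adjusted p = 0.0616).

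*Ikbkg* encodes NEMO, the scaffold that links the IκB kinases to ubiquitin chains. It lies on chromosome X (74393290 to 74453854, plus strand) and read 27.0, 27.8 and 25.6 TPM in untreated NTC, 29.1, 28.9 and 28.3 TPM in treated NTC, 24.7, 26.5 and 27.7 TPM in untreated DKO and 24.6, 25.6 and 25.3 TPM in treated DKO libraries. Treated DKO libraries lay below treated NTC ones, and the untreated groups overlapped. The genotype difference was -0.02 between untreated (SE 0.0528, adjusted p = 0.751) and -0.18 between treated cells (SE 0.0528, adjusted p = 0.0129). The second was -0.10 with libraries scaled to the same total (adjusted p = 0.153) and -0.13 with the GC and length trend removed in a fit with the replicate block (adjusted p = 0.0525), and passed in neither. The opposite-strand gene *G6pdx* shares 418 exon bases with *Ikbkg*, read 66.4 to 98.3 TPM and was higher in DKO cells by 0.18 (adjusted p = 0.00588) and 0.19 (adjusted p = 0.00341). Reads of both genes in the shared bases are not separated in unstranded libraries, and the part of *G6pdx* in the *Ikbkg* values was not tested.

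Averaged over both treatments, again a contrast added after the values were seen, 7 of the 10 genes differed between the genotypes, against 53.2% of tested genes (24.8% higher and 28.4% lower). *Nfkb2* (0.43, adjusted p = 1.3e-05), *Nfkbie* (0.55, adjusted p = 0.000671), *Nfkbia* (0.47, adjusted p = 0.00423) and *Nfkbib* (0.17, adjusted p = 0.0399) were higher in DKO cells. *Tnfaip3* (-0.36, adjusted p = 0.00265), *Rel* (-0.24, adjusted p = 0.0279) and *Ikbkg* (-0.10, adjusted p = 0.0306) were lower. The calls of *Nfkb2*, *Nfkbie*, *Nfkbia* and *Tnfaip3* held in all 12 fits that left out 1 library, those of *Rel*, *Ikbkg* and *Nfkbib* in 7, 6 and 5. The first 4 also held in all 8 other alternatives, and the last 3 in 5, 5 and 3 of them.

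Other values moved with genotype in the same libraries. All 7 melanocyte markers looked for were present, with a summed level of 16600 to 18600 TPM in NTC and 11100 to 12400 TPM in DKO libraries. Against NTC cells, all 7 were called lower in untreated and 6 in treated DKO cells, against 19.4% and 23.9% of tested genes called lower. After IFNγ in NTC cells 4 were called higher and 1 lower, against 12.1% of tested genes called in either direction. Of these IFNγ calls, those of *Tyr* and *Tyrp1* were each lost in 8 of 21 alternatives. Of 9 markers of immune, endothelial, epithelial and fibroblast cells, *Ptprc*, *Cd3e*, *Emr1* and *Epcam* were at 0 in all libraries, and the 9 summed to 4.48 to 6.68 TPM in NTC and 7.66 to 11.3 TPM in DKO libraries. *Cd68* and *Pdgfrb* reached 1 TPM in both genotypes and *Col1a1* in DKO libraries only. *Cd68* was higher in DKO cells by 0.45 without (adjusted p = 0.0194) and 1.10 with IFNγ (adjusted p = 3.27e-05) and rose with IFNγ in DKO cells (0.83, adjusted p = 0.00551). *Col1a1* was higher in DKO cells by 0.40 without and 0.67 with IFNγ. It met the filter only through the DKO libraries, so these differences are a description and not a test. The listed genes summed to 844185 to 874612 TPM in NTC and 805782 to 827191 TPM in DKO libraries. The part of these differences in the NF-κB values was not tested.

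The rest of the pathway was read from a list of 78 genes ordered by role, 51 of which were tested. After IFNγ, 6 rose and 4 fell in NTC cells and 1 rose and 0 fell in DKO cells, against 12.1% and 0.78% of all tested genes called. Between the genotypes 15 were higher and 12 lower in DKO cells, both without and with IFNγ, against 36.4% and 43.3% of all tested genes called, shares that also apply to the counts by role below. None passed the interaction test. Of the 10 calls after IFNγ in NTC cells, 3 held in all 21 alternatives (*Tnfrsf12a*, *Tlr3* and *Irf1*). In the genotype comparisons 16 of the 27 calls without IFNγ and 17 of the 27 with it held in all. Of the calls named below without IFNγ, those of *Ltbr*, *Tnfsf12*, *Chuk*, *Map3k14*, *Tnip2*, *Ier3*, *Bcl2l1* and *Ccl5* did not hold in all. Of those named with IFNγ, *Tlr4*, *Myd88*, *Tradd*, *Ikbkb* and *Tax1bp1* did not hold in all.

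Of 8 tested receptors, DKO cells had 4 higher and 0 lower without IFNγ and 5 higher and 1 lower with it, against 17.0% and 19.5% of all tested genes called higher. Their median difference was 0.16 and 0.30. *Tnfrsf1a*, the main TNF receptor, rose from 50.7 to 61.6 TPM without IFNγ (0.28, SE 0.0508, adjusted p = 0.000923) and from 49.7 to 65.0 TPM with it (0.38, SE 0.0508, adjusted p = 6.19e-05). *Ltbr*, the lymphotoxin receptor of the non-canonical branch, gave 0.25 (adjusted p = 0.0328) and 0.37 (adjusted p = 0.00313), of which the first was lost without any 1 of 5 of the 6 untreated libraries. The double-stranded RNA sensor *Tlr3* gave 0.51 (adjusted p = 0.000512) and 0.37 (adjusted p = 0.00383), and also rose with IFNγ in NTC cells (0.43, adjusted p = 0.0121). *Tlr2* averaged 0.508 TPM in NTC and 1.31 TPM in DKO cells without IFNγ (0.61). It stayed under 1 TPM in every NTC library and met the filter only through the DKO libraries. Its difference is therefore not a test, although it is among the 4 and 5 receptors counted as higher and enters the medians. *Tlr4* was the receptor called lower, in treated cells (-0.29, adjusted p = 0.0161), and its interaction was not called (-0.36, adjusted p = 0.382).

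Of the 7 ligands listed, only *Tnfsf12* (TWEAK) was expressed enough to be tested. It was higher in untreated DKO cells (0.44, SE 0.136, adjusted p = 0.0226), at 4.15 against 2.8 TPM, and was not called with IFNγ (0.10, adjusted p = 0.597). *Tnf* and both IL-1 genes stayed under 1 TPM on average in every condition. *Tnfrsf12a*, the TWEAK receptor, was lower after IFNγ in NTC cells, from 55.2 to 41.3 TPM (-0.41, SE 0.0717, adjusted p = 0.00523).

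Between receptor and kinase, DKO cells had 3 of 9 adaptor genes lower and 0 higher without IFNγ, and 2 lower and 2 higher with it. *Rbck1*, which encodes the HOIL-1 subunit of the linear ubiquitin assembly complex, was at 58.4 against 93.5 TPM without IFNγ (-0.67, SE 0.0674, adjusted p = 6.83e-06) and at 54.4 against 80.0 TPM with it (-0.55, adjusted p = 3.12e-05). Its partner *Sharpin* gave -0.30 without IFNγ (adjusted p = 0.00177). *Traf6*, the ligase of the IL-1 and Toll-like receptor branch, gave -0.55 (adjusted p = 3.78e-05) and -0.50 (adjusted p = 7.13e-05). The adaptors that were higher in treated DKO cells were *Myd88* (0.39, adjusted p = 0.0139) and *Tradd* (0.23, adjusted p = 0.0231).

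Kinase genes split evenly, with 4 of 12 higher and 4 lower in DKO cells under both treatments. The catalytic IκB kinases went opposite ways. *Chuk* (IKKα) gave -0.22 (SE 0.0673, adjusted p = 0.0217) and -0.32 (SE 0.0673, adjusted p = 0.00214), and *Ikbkb* (IKKβ) gave 0.21 (SE 0.0536, adjusted p = 0.00687) and 0.18 (SE 0.0536, adjusted p = 0.0175). Both stayed of the same order as *Ikbkg* in TPM, from 40.5 to 50.5 for *Chuk* and from 25.3 to 29.9 for *Ikbkb* on average. *Tab2*, a ubiquitin-binding partner of the kinase TAK1, gave -0.41 (adjusted p = 0.00218) and -0.37 (adjusted p = 0.0036). *Map3k14* (NIK), the kinase that starts p100 processing, was at 2.29 against 1.43 TPM without IFNγ (0.44, SE 0.136, adjusted p = 0.0222). With IFNγ it was not called (0.32, adjusted p = 0.0751).

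Among 10 tested negative regulators and atypical IκB genes, the untreated DKO cells had 3 genes lower and 1 higher, and the treated DKO cells had 4 lower and 0 higher. *Itch*, a ubiquitin ligase that works with A20, gave -0.34 (adjusted p = 0.0005) and -0.40 (adjusted p = 0.000143). *Tnip2*, an A20-binding protein, gave -0.32 (adjusted p = 0.0205) and -0.36 (adjusted p = 0.00944). *Tax1bp1*, another A20 partner, was called lower in treated cells (-0.23, adjusted p = 0.00689), as was the deubiquitinase *Cyld* (-0.24, adjusted p = 0.00761). Neither was called in untreated cells, and their interactions were not called (adjusted p = 0.449 and 0.437). The higher one was *Nfkbiz*, an atypical nuclear IκB (0.37, adjusted p = 0.00577).

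Of 20 known NF-κB target genes listed, 8 reached the level for testing, and of the 12 that did not, 6 were at 0 in all libraries. The median of the 8 was 0.13 without and 0.11 with IFNγ, against -0.006 and -0.013 for all tested genes. DKO cells had 2 of the 8 higher and 2 lower without IFNγ, and 1 higher and 1 lower with it. *Ier3* was higher in DKO cells without IFNγ (0.37, adjusted p = 0.0152, or 0.22 and adjusted p = 0.0579 without untreated NTC replicate 1) and with it (0.53, adjusted p = 0.00125). *Birc3*, the gene of cIAP2, was higher without IFNγ (0.58, adjusted p = 0.00201) but not called with it (0.09, adjusted p = 0.56). IFNγ raised *Birc3* in NTC cells (0.47, adjusted p = 0.0269, lost in 8 of 21 alternatives) and gave -0.02 in DKO cells. The interaction of *Birc3* was not called (-0.48, adjusted p = 0.392). *Tnfaip2* was lower, at 19.2 against 34.4 TPM without IFNγ (-0.80, SE 0.0871, adjusted p = 1.32e-05) and 19.4 against 30.4 TPM with it (-0.62, adjusted p = 9.05e-05). *Bcl2l1* was lower without IFNγ (-0.18, adjusted p = 0.0226). Targets that NF-κB shares with the IFNγ pathway were higher in DKO cells for all 3 of the 6 that were tested. *Cxcl10* was at 12.7 against 4.55 TPM without IFNγ (1.32, SE 0.207, adjusted p = 0.000265) and 15.1 against 6.53 TPM with it (1.09, adjusted p = 0.000931). *Ccl5* gave 0.50 (adjusted p = 0.0323) and 0.64 (adjusted p = 0.00854), and *Irf1* 0.53 (adjusted p = 7.83e-05) and 0.33 (adjusted p = 0.00235).

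**Figure D5:**
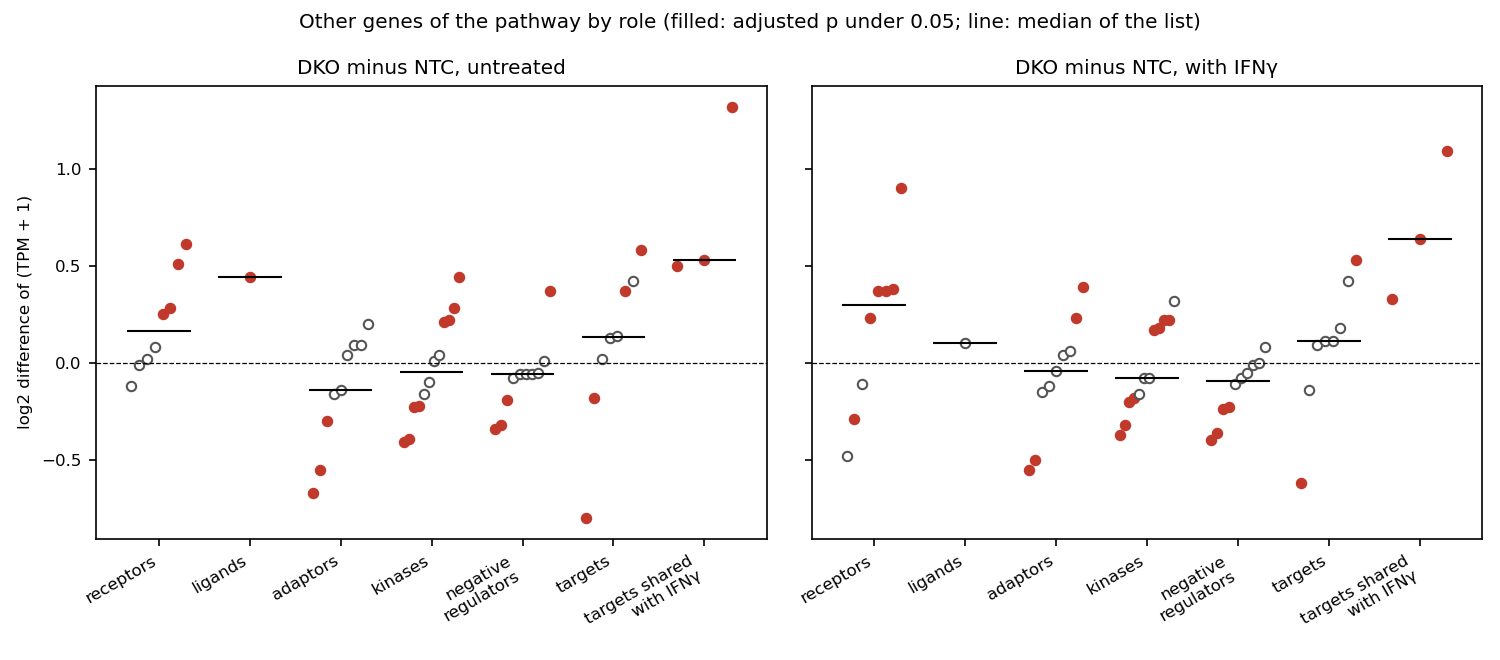
Log2 differences of (TPM + 1) between DKO and NTC cells for the 51 tested genes of the pathway, without (left) and with IFNγ (right), grouped by role, with filled points where the limma adjusted p was under 0.05 and a line at the median of each group. The medians of the receptors are 0.16 and 0.30, and the 3 targets shared with IFNγ are all filled and above 0.

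The genes whose log2(TPM + 1) followed the 3 most variable members most closely over the 12 libraries were named as a description. Pearson's r was 0.978 for *Nfkb2* with *Cadm4*, and 0.971 with *Dbn1* and with *Kif26a*. For *Nfkbie* it was 0.957 with *Traf3ip2*, 0.957 with *Agrn* and 0.956 with *Mtch1*. For *Nfkbia* it was 0.947 with *Hes6*, 0.942 with *Pnkd* and 0.942 with *4930427A07Rik*. These are the highest values among 11663 tested genes, and the 12 libraries fall into 4 conditions, so that genes sharing the genotype and IFNγ pattern are picked by construction.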

How the data were processed

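RNA-seq values of 12 libraries, 3 in each of 4 conditions, were analysed. TPM were made and deposited by the authors. Their paper states poly(A)-selected, unstranded libraries of paired 50 bp reads, quantified with RSEM, and the submitters' processing notes name RSEM 1.2.4, Bowtie and TopHat. Scaling between libraries is not given in the sources used here. The paper gives an approximate number of reads per sample. The depth of each single library cannot be had from TPM, and the replicate spread alone sets the precision.

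Of the 23022 listed genes, the 11663 that reached 1 TPM in 3 or more libraries were tested. log2(TPM + 1) was fitted with limma 3.58.1 (R 4.3.3), as 4 condition means, with the prior variance allowed to depend on expression. There were 5 comparisons, and p-values were adjusted over all tested genes (Benjamini-Hochberg, 0.05). The fit was tested on simulated data. The rule named all 10 members, pathway genes that passed in at least 1 comparison, the targeted genes, and the 3 genes most like each of the 3 members with the widest range of condition means. Overlapping genes and transcript properties came from GENCODE M21, in which 22251 listed genes were found, and promoters from RefSeq. Replicate numbers were not used as pairs. Alternatives were a pseudocount of 0.1, no filter, a replicate block, only the 6 libraries compared, scaling to the same total or by median ratio, removal of a GC and length trend (also with the block), one prior variance, and each library left out. The members, lists and tests were chosen with earlier results of these data known. Protein and splicing data were not analysed here.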

Additional observations from a re-analysis of the deposited data

How the results depend on the processing

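Of the 10 members, 2 were called after IFNγ in NTC cells, 1 without the filter on low values, 0 after removal of the trend with GC content and length, and 0 after that removal in a fit with the replicate block. Leaving out 1 library gave 0 to 3 members. Calls over all tested genes in that comparison numbered 1411, against 897 without the filter, 524 with the trend removed, 405 with the block added, 737 with one prior variance and 317 to 2023 with 1 library left out. For the interaction 4 genes were called over all genes, against 10 without the filter, 2 with the block and 0 to 7 with 1 library left out. The numbers of members called for IFNγ in DKO cells (0) and for the interaction (0) were the same in every alternative. For DKO against NTC cells they ran from 2 to 4 without IFNγ and from 4 to 6 with it.

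Samples that share a replicate number did not deviate together (r between -0.18 and 0.18, and in all 2 of the 12 libraries correlated best with a library of their own number), so the numbers were not taken as pairs. A replicate block left the counts of members called at 2, 0, 3, 6 and 0.

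Differences near 0 changed sign without passing the threshold. With the GC and length trend removed, alone or with the block, *Tnfaip3* with IFNγ in NTC was -0.03, *Rel* with IFNγ in DKO -0.02, *Nfkb1* between untreated genotypes 0.01, *Rela* between treated genotypes -0.15, and the interaction of *Relb* -0.08 and of *Nfkbie* -0.06. Scaled to the same total, *Nfkb1* was 0.04 and *Ikbkg* 0.02 between untreated genotypes. With 1 library left out the ranges were as follows. In NTC with IFNγ, *Tnfaip3* ran from -0.04 to 0.11. In DKO with IFNγ, *Nfkb1* ran from -0.09 to 0.01, *Nfkbib* from -0.07 to 0.11, *Rel* from -0.06 to 0.12, *Rela* from -0.12 to 0.09 and *Tnfaip3* from -0.01 to 0.11. Between untreated genotypes, *Ikbkg* ran from -0.06 to 0.02, *Nfkb1* from -0.06 to 0.04 and *Nfkbib* from -0.04 to 0.14. Between treated genotypes, *Nfkb1* ran from -0.03 to 0.09 and *Rela* from -0.05 to 0.15. For the interaction, *Nfkb1* ran from -0.02 to 0.09, *Nfkbia* from -0.02 to 0.39, *Nfkbie* from -0.14 to 0.20, *Relb* from -0.08 to 0.17 and *Tnfaip3* from -0.06 to 0.09. The cause was not tested.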
